A study of Mus musculus with 12 samples.

Results

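The genes described here encode voltage-gated sodium, calcium and potassium channels, the other potassium channels, and their auxiliary subunits. Members were protein-coding mouse genes named as Scn alpha or beta, Kcn, or Cacna, Cacnb or Cacng genes, without Scn4b and Kcnj8, with a mean of at least 1 TPM over the 12 libraries (TPM is a gene's length-corrected share of a library's transcripts). Of 131 such genes at any level, 100 were members and 31 were below 1 TPM, out of 55487 rows in the deposited table. Kcnk5 (0.869 TPM) and Kcnh6 (0.932 TPM) lay just outside the threshold and Kcna5 (1.13 TPM) just inside it. Every one of the 100 members passed the low-count filter.

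The libraries were poly(A)-selected, stranded RNA-seq of mouse cortical tissue taken 2 hr after controlled cortical impact (CCI, a contusion made on one side with a driven piston through an opened skull). There were 3 libraries in each of 4 groups: ipsilateral and contralateral cortex of CX3CR1cre-er/+ animals, called wt below, and of CX3CR1cre-er/+ STING fl/fl animals, called cKO. All 4 groups therefore carried a Cx3cr1 Cre allele and all received the injury, with no uninjured group analysed here. Cx3cr1 drives Cre in microglia and in monocyte-lineage blood cells, and floxed Tmem173 encodes STING, an adaptor for DNA sensed in the cytosol. The labels mention no tamoxifen and no age, and the series description writes the floxed animals' Cre allele without the inducible part. The labels do not tie libraries to animals, so each p-value here measures library-to-library spread, which may be technical.

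Voltage-gated channels open when the membrane is depolarised. Sodium channels carry the upstroke of the action potential, calcium channels link depolarisation to transmitter release and to calcium signals, and voltage-gated potassium channels repolarise the membrane. Inward rectifier and two-pore-domain potassium channels set the resting potential, and in astrocytes they take up potassium released by active neurons. Most members are best known from cortical neurons, while Kcnj10 and Kcnj16 are typical of astrocytes.

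Total counts ranged from 7958931 in cKO ipsilateral replicate 3 to 33567194 in cKO contralateral replicate 1. Tmem173 had 2.34 to 3.69 CPM (counts relative to the TMM-scaled library size) in the 6 wt libraries and 0.762 to 2.44 in the 6 cKO libraries, so the genotypes overlapped, with cKO ipsilateral replicate 2 highest among the cKO libraries. The 13 neuron markers summed to 5879 to 8057 TPM, and none of them was at 0 in any library. Neutrophil markers summed to 26.4 to 135 TPM in the 6 ipsilateral libraries against 1.49 to 3.88 in the 6 contralateral ones, and all 8 of the 9 that were tested passed higher over both genotypes. Of these 9, 7 were at 0 in at least 1 library, among them Ly6g and S100a8, but only 1 in an ipsilateral library. Red cell markers summed to 2391 to 7309 TPM ipsilaterally against 9.47 to 961 contralaterally, and all 5 tested passed higher. In such bulk tissue, fewer cells of a type and less RNA per cell cannot be told apart.

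The RefSeq promoter sequences of 5 members that passed the test between sides are shown as examples from 5 of the 8 classes with a called gene: an auxiliary subunit, a two-pore-domain channel, an A-type channel, an astrocyte inward rectifier and the ERG channel that was lower. Each reads 5′ to 3′ on the gene's strand in GRCm38.p6, the build named in the submitters' processing notes as mm10, and covers the 250 bases before a RefSeq transcript start. The Kcne4 stretch is limited to 97 bases, because the annotation places an exon in the remaining 153. The Kcnh2 window lies before an internal start of that gene. Capitals mark GC boxes, GGGCGG on either strand.
Kcne4, chr1:78816661-78816757, plus strand: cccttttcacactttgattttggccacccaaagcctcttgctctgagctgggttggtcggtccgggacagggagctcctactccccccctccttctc
Kcnk12, chr17:87797995-87798244, minus strand: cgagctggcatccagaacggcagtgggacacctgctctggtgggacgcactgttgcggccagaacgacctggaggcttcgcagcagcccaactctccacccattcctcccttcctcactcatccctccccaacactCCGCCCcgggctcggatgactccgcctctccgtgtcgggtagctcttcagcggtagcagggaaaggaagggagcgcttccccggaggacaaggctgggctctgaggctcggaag
Kcna4, chr2:107290339-107290588, plus strand: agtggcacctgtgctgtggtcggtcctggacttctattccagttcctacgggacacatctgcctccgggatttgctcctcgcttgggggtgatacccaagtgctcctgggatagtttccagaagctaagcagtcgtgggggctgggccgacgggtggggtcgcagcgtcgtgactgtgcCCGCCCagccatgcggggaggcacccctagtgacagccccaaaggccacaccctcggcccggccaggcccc
Kcnj10, chr1:172340960-172341209, plus strand: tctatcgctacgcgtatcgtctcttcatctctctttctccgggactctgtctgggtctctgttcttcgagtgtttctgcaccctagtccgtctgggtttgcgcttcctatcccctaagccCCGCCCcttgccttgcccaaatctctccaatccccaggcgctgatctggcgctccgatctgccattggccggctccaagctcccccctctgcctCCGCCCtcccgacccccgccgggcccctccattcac
Kcnh2, chr5:24329592-24329841, minus strand: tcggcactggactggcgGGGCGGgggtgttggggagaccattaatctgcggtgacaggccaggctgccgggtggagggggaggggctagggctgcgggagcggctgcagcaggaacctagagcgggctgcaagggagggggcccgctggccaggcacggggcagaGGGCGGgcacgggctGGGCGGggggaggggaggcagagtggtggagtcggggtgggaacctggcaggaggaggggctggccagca

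Windows were found for 70 of the 100 members, 104 windows in all, since some genes have several starts. GC boxes occurred in 44 of the 104 member windows (42.3%) and in 32.7% of all 32851 promoter windows of the same length. Median GC content was 59.0% in the member windows and 52.4% in all windows, and its part in these shares was not tested. The letters of an AP-1 site (TGANTCA) were in 4 of the 104 (3.85%), against 6.75% of all windows, and those of an EGR site (GCGNGGGCG) in 7 (6.73%), against 4.7%. A cyclic AMP response element (TGACGTCA), the CArG box bound by serum response factor and a canonical NF-kB site matched no member window, against 1.55%, 1.47% and 0.356% of all windows. A TATA box (TATAAA) was in 5 of the 104 (4.81%), against 12.4%. All motifs were read on both strands, and an EGR match can overlap a GC box match. Of the 5 sequences above, Kcnk12 and Kcna4 held 1 GC box each, Kcnj10 held 2 and Kcnh2 held 3, and none held a match to the other motifs. A match is a string of letters and says nothing of a bound factor.

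Auxiliary subunits were among the most abundant channel transcripts. Levels between genes are compared as mean TPM over all 12 libraries, a unit that corrects for transcript length. Kcnab2, a cytoplasmic beta subunit of Kv1 channels, was at 247 TPM and Cacnb3, a calcium channel beta subunit that aids trafficking, at 235 TPM. The highest pore-forming genes were Kcnj4 (113 TPM) and Kcnh3 (111 TPM). The 3 sodium channel beta subunits made up 17.9% of all channel TPM and the 9 auxiliary Kv subunits 15.2%, whereas the 4 sodium channel alpha subunits made up 3.0%.

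**Figure D1:**
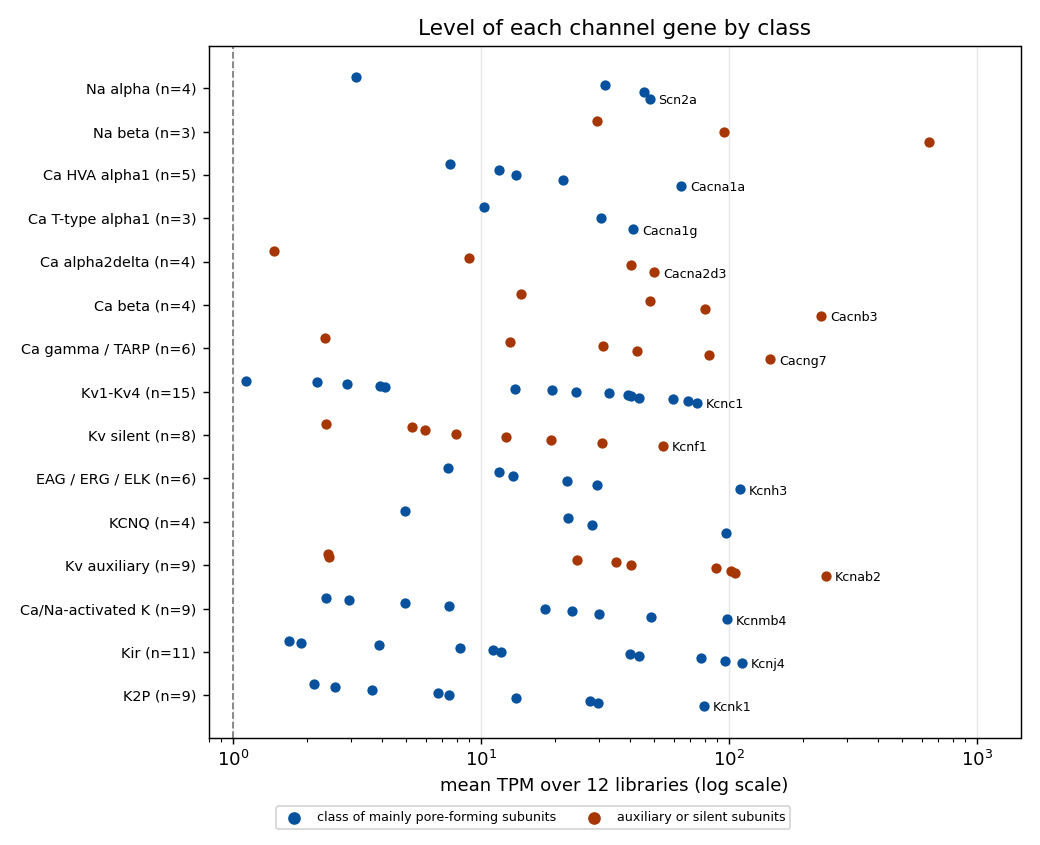
Mean TPM over the 12 libraries (log axis) of the 100 channel genes, 1 point a gene, in rows by class, with the highest gene named in 13 of the 15 classes and the membership threshold of 1 TPM dashed. Cacnb3 at 235 TPM and Kcnab2 at 247 TPM end their rows, and the classes of pore-forming subunits all end at or below the 113 TPM of Kcnj4.

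Of the 31 genes below the threshold, none was at 0 in every library. Several are best known from other tissues, such as Scn4a of skeletal muscle (0.005 TPM), Scn10a of sensory neurons (0.062 TPM), Kcnq1 of heart and epithelia (0.378 TPM) and Kcnj1 of kidney (0.009 TPM). Kcnn4, the intermediate-conductance channel of blood and microglial cells, was also below at 0.156 TPM. Of the members, 54 overlap a gene on the opposite strand and 23 a gene on their own strand, and reads in same-strand overlaps could be assigned to either gene.

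The first comparison asked how channel transcripts differed between the injured and the other side 2 hr after impact. In wt cortex 1 of the 100 members passed the test, Kcnk12, against 2.92% of the 16836 genes tested. In cKO cortex 2 members passed, Kcne4 higher and Kcnh2 lower, against 2.74% of all genes. Averaged over both genotypes, 10 members passed, 7 higher and 3 lower ipsilaterally, against 8.02% of all genes (5.99% higher and 2.03% lower). These shares are close to those of all genes. The wt count was 8 with DESeq2 (4.55% of all genes) and 8 without wt contralateral replicate 3 (5.02%). It was 0 without wt contralateral replicate 2 (1.46%) or wt ipsilateral replicate 2 (1.63%). The cKO count was 0 without cKO ipsilateral replicate 2 (1.62% of all genes). Over both genotypes the count was 6 without wt contralateral replicate 2 (5.27%) and 19 without wt contralateral replicate 3 (12.1%). A gene passed when its p from the quasi-likelihood test of edgeR, adjusted by Benjamini-Hochberg over all tested genes, was under 0.05.

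Most channel genes lay slightly lower on the injured side. Over both genotypes 69 of the 100 log2 differences were below 0, against 51.8% of all genes, and their median was −0.06, against −0.01 for all genes. The median was −0.04 in wt, with 58 members below 0 against 51.2% of all genes, and −0.09 in cKO, with 69 below 0 against 51.4%. The 3 wt ipsilateral libraries lay wholly above the 3 contralateral ones for 8 members and wholly below for 12, against 10.5% and 8.7% of all genes. In cKO this held for 11 and 21 members, against 10.8% and 11.1%. Summed CPM of the 100 genes was 10446 ± 330.1 (SD, n = 3) contralaterally and 10192 ± 398 ipsilaterally in wt, and 10335 ± 138 and 9731 ± 317 in cKO. The wt sums overlapped between sides, while the highest cKO ipsilateral sum, 10035, was below the lowest cKO contralateral sum, 10222.

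Larger differences were more frequent among members of lower level. Of the 33 members of lowest mean level (1.13 to 11.2 TPM), 10 had a log2 difference beyond 0.3 in either direction, and of the next 34 (11.8 to 40.4 TPM), 2 did. None of the 33 highest (40.5 to 640 TPM) did. Below 0 were 15 of the lowest 33 (median 0.02), 26 of the next 34 (−0.10) and 28 of the highest 33 (−0.06). The largest within-group SDs of log2 CPM were those of 2 low genes, Kcna5 (0.443) and Kcne4 (0.428). The smallest was that of Cacna2d2 (0.0449, at 8.94 TPM). The part of this spread in the larger differences of low members was not tested. On the scale of log2(TPM + 1) the all-gene median itself moved, by −0.18 in wt, −0.04 in cKO and −0.11 over both genotypes, so differences between sides are given here in CPM scaled by the trimmed mean of M-values (TMM). With limma on log2(TPM + 1), 3 members passed over both genotypes, 1 higher and 2 lower, against 2.74% of all genes. With library totals alone 13 passed, 7 higher and 6 lower, against 8.65%.

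**Figure D2:**
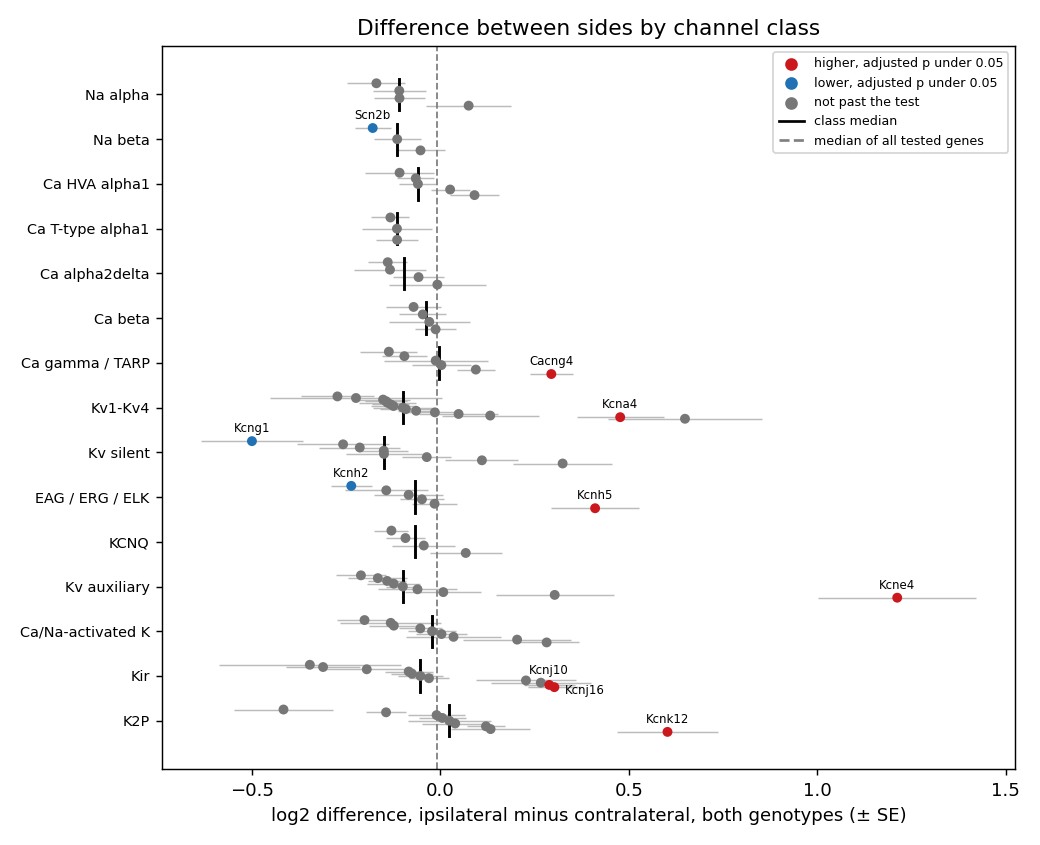
Log2 difference, ipsilateral minus contralateral over both genotypes, for each of the 100 channel genes with its standard error, in rows by class, with the class median as a black bar and the median of all tested genes (−0.01) dashed. Red genes were called higher and blue genes lower, and Kcne4 at 1.21 stands furthest from 0.

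Among sodium channels the beta2 subunit fell and no pore-forming gene passed the test. Scn2b (ENSMUSG00000070304, chr9:45117782-45130070), which binds alpha subunits and aids their surface expression, was at 300.03, 285 and 298 CPM in wt contralateral libraries and 266, 239 and 255 in wt ipsilateral ones. In cKO it was at 287, 283 and 284 CPM contralaterally and 244, 248 and 284 ipsilaterally. The wt sides did not overlap, whereas in cKO ipsilateral replicate 3 reached the contralateral level. The fall over both genotypes was −0.18 ± 0.05 (log2 ± SE, adjusted p = 0.0338, edgeR, −0.22 in wt and −0.14 in cKO), and 12 of 24 alternatives kept it past the threshold, with adjusted p from 0.00516 to 0.167.

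The other sodium channel genes were within 0.2 of no difference. The brain alpha subunits Scn1a (mainly of inhibitory neurons), Scn2a and Scn8a (both of axon initial segments) differed by −0.11 ± 0.07, −0.17 ± 0.08 and −0.11 ± 0.07, and the developmental alpha subunit Scn3a by 0.08 ± 0.11. The beta subunit Scn3b differed by −0.11 ± 0.06. Summed CPM of the 4 alpha genes was 761 ± 105 and 712 ± 62.0 (wt contralateral and ipsilateral, SD, n = 3) and 756 ± 20.5 and 681 ± 43.6 (cKO). These alpha sums overlapped between sides in wt and not in cKO. For the 3 beta genes it was 936 ± 82.1 and 897 ± 10.5 in wt, and 922 ± 43.1 and 844 ± 49.9 in cKO.

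No pore-forming calcium channel gene passed the test. Cacna1a (P/Q-type, the main channel of transmitter release) differed by −0.06 ± 0.05, Cacna1b (N-type, also presynaptic) by −0.06 ± 0.05 and Cacna1c (L-type) by 0.03 ± 0.05. The R-type gene Cacna1e, at −0.11 ± 0.09, had the largest difference of the 5 high-voltage-activated genes, whose summed CPM was 509.9 ± 29.6 and 482 ± 36.1 in wt and 484 ± 2.84 and 477 ± 31.5 in cKO. The 3 low-threshold T-type genes lay close together, Cacna1g at −0.13 ± 0.05, Cacna1h at −0.11 ± 0.09 and Cacna1i at −0.11 ± 0.05. Their summed CPM was 289.96 ± 2.47 contralaterally and 271 ± 1.26 ipsilaterally in wt, without overlap, and 287 ± 8.14 and 259.9 ± 13.5 in cKO, also without overlap.

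Of the 14 auxiliary calcium channel genes, Cacng4 rose and the other 13 did not pass. Cacng4 (ENSMUSG00000020723, chr11:107732357-107794557) encodes TARP gamma4, a subunit that escorts AMPA receptors rather than a calcium channel pore. It was at 26.0, 27.6 and 27.99 CPM in wt contralateral libraries and 31.1, 33.99 and 34.4 in wt ipsilateral ones, and at 24.8, 23.6 and 24.95 against 32.1, 29.7 and 28.4 in cKO. Every ipsilateral library was above every contralateral one. The rise was 0.29 ± 0.06 (adjusted p = 0.00377, edgeR), a ratio of 1.23, and the difference was 0.29 in wt and 0.30 in cKO. It held without each library in turn and was lost in the 3 fits to TPM, with adjusted p up to 0.415.

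The remaining auxiliary calcium genes differed little over both genotypes. Cacng7 (147 TPM), the most abundant of the gamma class, differed by 0.09 ± 0.05, Cacnb3 by −0.01 ± 0.05 and Cacnb2 by −0.07 ± 0.07. The 4 alpha2delta genes, a family of which some members bind gabapentin, summed to 329 ± 35.4 and 332 ± 37.1 CPM in wt and to 323 ± 6.63 and 277 ± 5.81 in cKO. The cKO sides did not overlap and the wt sides did. Within that class Cacna2d2 differed by −0.14 ± 0.05 and Cacna2d3, the most abundant at 49.9 TPM, by −0.06 ± 0.07. Beta genes summed to 762 ± 43.0 and 779 ± 45.1 CPM in wt and 764 ± 22.5 and 721 ± 40.7 in cKO, and gamma genes to 518 ± 16.5 and 529 ± 11.02 in wt and 509 ± 29.5 and 497 ± 17.7 in cKO.

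Among the 15 Kv1 to Kv4 genes, Kcna4 rose. Kcna4 (ENSMUSG00000042604, chr2:107290639-107298502) encodes Kv1.4, a rapidly inactivating A-type channel of axons. It was at 11.2, 9.09 and 12.9 CPM in wt contralateral libraries and 18.2, 13.6 and 13.4 in wt ipsilateral ones, and at 9.42, 7.80 and 9.95 against 11.03, 14.9 and 12.7 in cKO. The sides did not overlap within either genotype. The rise was 0.48 ± 0.11 (adjusted p = 0.0184, edgeR, ratio 1.39), 0.45 in wt and 0.51 in cKO. It was lost without wt contralateral replicate 2, cKO contralateral replicate 2 or cKO ipsilateral replicate 2 and in the TPM fits, with adjusted p up to 0.211.

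Kcna3, the Kv1.3 channel known from T cells and activated microglia, had the largest difference of this class, 0.65 ± 0.20, but did not pass (adjusted p = 0.0670, edgeR). Its levels were low, 1.35, 1.66 and 2.81 CPM contralaterally and 2.95, 2.45 and 2.43 ipsilaterally in wt, and 1.29, 1.92 and 2.33 against 2.59, 3.604 and 3.98 in cKO. In 7 of 24 alternatives it was past the threshold. Of the 15 genes 11 were below 0, among them the fast-spiking channel Kcnc1 (−0.06 ± 0.05), the axonal Kcna2 (−0.12 ± 0.06) and the dendritic A-type Kcnd2 (−0.09 ± 0.07), while Kcna1 was at 0.13 ± 0.13. Kcna5, near the membership threshold, was at −0.22 ± 0.23. Summed CPM of the class was 1674 ± 86.7 and 1576 ± 95.6 in wt, with overlap, and 1646 ± 14.8 and 1541 ± 48.3 in cKO, without overlap.

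Silent Kv subunits do not form channels alone and alter Kv2 channels when they join them. Of 8 such genes, Kcng1 (ENSMUSG00000074575, chr2:168260117-168281736) fell. It was at 15.4, 21.6 and 24.3 CPM in wt contralateral libraries against 11.8, 15.5 and 14.4 ipsilaterally, and at 21.4, 17.0 and 25.4 against 15.2, 12.9 and 20.03 in cKO. The sides overlapped in both genotypes, in wt by 15.4 against 15.5 CPM. The fall was −0.50 ± 0.14 (adjusted p = 0.0345, edgeR, ratio 0.707), and 13 of 24 alternatives kept it, with adjusted p up to 0.169. Kcnf1, the most abundant of the class at 54.3 TPM, differed by −0.04 ± 0.06. The class median was −0.15 and 6 of its 8 genes were below 0, but its summed CPM, carried by the abundant genes, was 356 ± 24.1 and 353 ± 12.03 in wt and 355 ± 37.4 and 363 ± 34.2 in cKO.

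The ether-a-go-go family moved in both directions. Kcnh2 (ENSMUSG00000038319, chr5:24319589-24351604) encodes ERG1, a potassium channel that aids repolarisation. It was at 48.7, 44.9 and 46.1 CPM in wt contralateral libraries and 40.1, 45.6 and 41.5 ipsilaterally, and at 43.1, 47.7 and 46.0 against 37.1, 36.6 and 34.3 in cKO. The cKO sides did not overlap, and in wt only ipsilateral replicate 2 reached into the contralateral range. The fall over both genotypes was −0.24 ± 0.05 (adjusted p = 0.0136, edgeR, ratio 0.849). It passed in all 24 alternatives, TPM fits included, with adjusted p from 0.00176 to 0.0499, close to the threshold.

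In cKO alone Kcnh2 fell by 0.34 ± 0.08 on the log2 scale (adjusted p = 0.0274, edgeR), and in wt it differed by −0.14 ± 0.08. The replicate block treated same-numbered libraries as pairs in both genotypes. With it the cKO difference was −0.34 (adjusted p = 0.0594, edgeR), and Kcng1 passed in place of Kcnh2. The cKO call was also lost without wt ipsilateral replicate 3, without cKO contralateral replicate 2 or 3, and without any 1 of the 3 cKO ipsilateral libraries. It was lost too in the 3 TPM fits and without cKO ipsilateral replicate 3 and wt contralateral replicate 3 together. Alternatives gave it adjusted p from 0.00502 to 0.136.

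Kcnh5 (ENSMUSG00000034402, chr12:74897220-75177332), the EAG2 channel, rose. It was at 14.3, 13.8 and 22.2 CPM contralaterally and 25.8, 20.1 and 22.5 ipsilaterally in wt, and at 14.8, 14.3 and 18.7 against 21.4, 19.3 and 21.02 in cKO. The sides overlapped in wt through contralateral replicate 3 and did not in cKO. The rise was 0.41 ± 0.12 (adjusted p = 0.0438, edgeR), and 11 of 24 alternatives kept it. Only leaving out wt contralateral replicate 3 or cKO contralateral replicate 3 left the call in place, of the 12 single libraries, and adjusted p reached 0.446. Kcnh3, the most abundant of the family, differed by −0.05 ± 0.06. The 6 genes summed to 599.8 ± 33.9 and 594 ± 32.97 CPM in wt, with overlap, and 587 ± 21.2 and 546 ± 3.29 in cKO, without overlap.

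KCNQ genes encode the M-current, which limits repetitive firing, and none of 4 passed. Kcnq3 differed by −0.04 ± 0.08. Summed CPM was 812 ± 51.4 and 761 ± 50.8 in wt, with overlap, and 806 ± 11.7 and 749 ± 45.3 in cKO, without overlap.

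The largest difference of any member was in an auxiliary subunit. Kcne4 (ENSMUSG00000047330, chr1:78816758-78820028) encodes a single-pass protein that inhibits Kv1 and KCNQ channels. It was at 2.62, 2.52 and 3.44 CPM in wt contralateral libraries and 4.47, 5.54 and 5.64 in wt ipsilateral ones, and at 1.26, 1.70 and 3.10 against 4.54, 8.09 and 4.35 in cKO. Every ipsilateral library was above every contralateral one, as in 3.59% of all genes. The lowest library held 35 counts of it.

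Over both genotypes Kcne4 rose by 1.21 ± 0.21 (adjusted p = 0.00169, edgeR, 2.32-fold), and it passed in 23 of 24 alternatives. In cKO it rose by 1.56 ± 0.30 (adjusted p = 0.00859, edgeR, 2.95-fold). That call was lost without cKO contralateral replicate 1 or cKO ipsilateral replicate 2 and in the 3 TPM fits. In wt Kcne4 differed by 0.87 ± 0.29, and the difference between genotypes was not past the test. The neutrophil and red cell markers given above moved in the same libraries, and their part in the result was not tested.

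The other Kv auxiliary genes did not pass. Kcnip4, a KChIP subunit of Kv4 channels, was lowest at −0.21 ± 0.07 (adjusted p = 0.0668, edgeR), and it was called lower in 8 of 24 alternatives, among them the replicate block, DESeq2 and the 3 TPM fits. Kcnab2 differed by −0.10 ± 0.04, Kcnab1 by −0.12 ± 0.07 and the calcium-binding Kcnip3 by −0.14 ± 0.05. The 9 genes summed to 1185 ± 104 and 1166 ± 26.4 CPM in wt and to 1185 ± 12.8 and 1067 ± 9.40 in cKO. The cKO sides did not overlap. In wt, contralateral replicate 1 had the highest sum of all libraries, 1298 CPM.

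**Figure D3:**
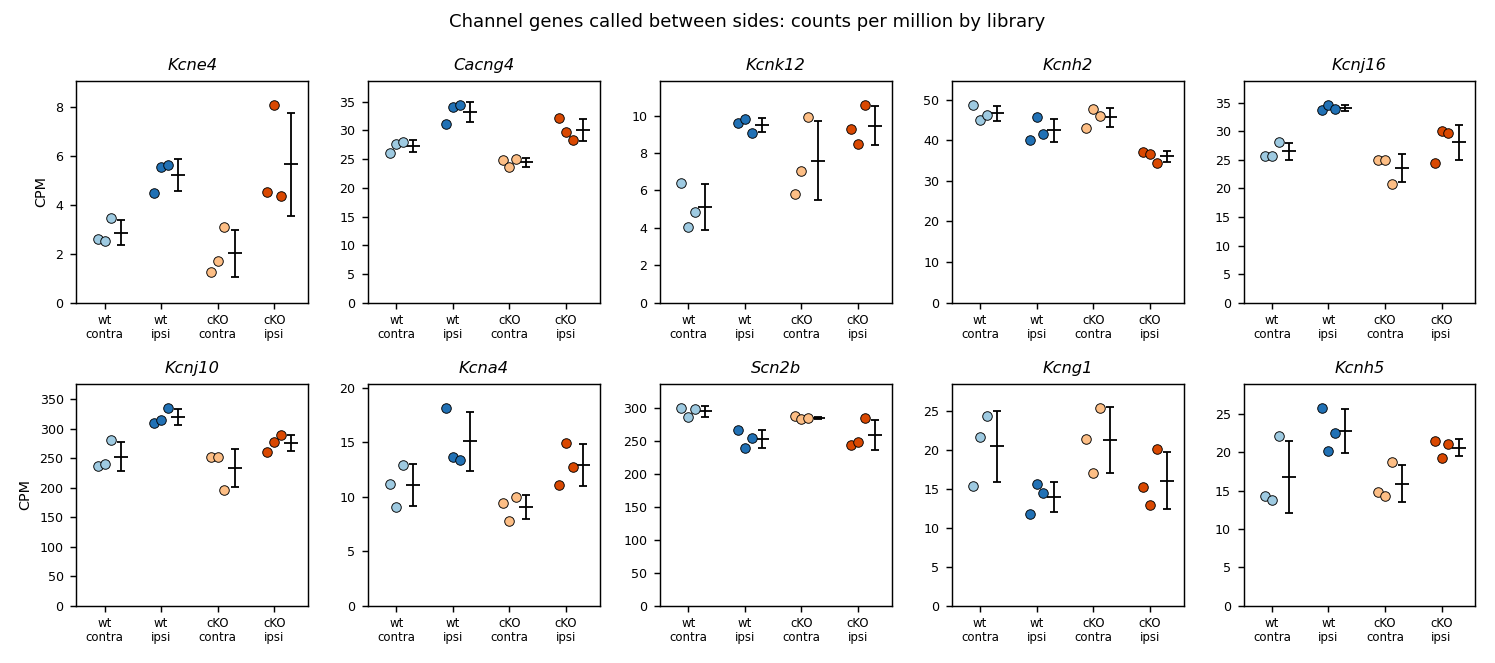
CPM in each of the 12 libraries for the 10 channel genes called between sides over both genotypes, 1 panel a gene and 3 points a group, with the group mean and SD as a black bar (axes start at 0). In the Kcne4 and Cacng4 panels every ipsilateral point lies above every contralateral point of both genotypes.

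None of the 9 calcium- and sodium-activated potassium channel genes passed. Kcnma1, the BK channel, differed by −0.20 ± 0.07, Kcnmb4, its neuronal beta4 subunit and the most abundant of the class, by −0.05 ± 0.06, and the small-conductance channel Kcnn2 by 0.00 ± 0.07. Kcnn3 was the largest at 0.28 ± 0.09 (adjusted p = 0.0563, edgeR). It was at 8.49, 9.74 and 11.6 CPM contralaterally and 14.2, 11.97 and 13.7 ipsilaterally in wt, and at 10.98, 11.3 and 10.7 against 11.5, 12.01 and 13.3 in cKO, without overlap within either genotype. The class summed to 523 ± 34.1 and 484 ± 14.1 CPM in wt and 528 ± 21.6 and 499 ± 27.6 in cKO.

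Both astrocyte inward rectifiers rose, out of 11 inward rectifier genes. Kcnj10 (ENSMUSG00000044708, chr1:172341210-172374085) encodes Kir4.1, the main potassium uptake channel of astrocytes. It was at 237, 241 and 281 CPM contralaterally and 310.3, 315 and 336 ipsilaterally in wt, and at 252, 253 and 196 against 261, 278 and 289 in cKO. The sides did not overlap within either genotype. The rise was 0.29 ± 0.07 (adjusted p = 0.0150, edgeR, ratio 1.22).

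Kcnj16 (ENSMUSG00000051497, chr11:110968033-111027968) encodes Kir5.1, which joins Kir4.1 and does not conduct on its own. It was at 25.6, 25.7 and 28.2 CPM contralaterally and 33.7, 34.6 and 33.9 ipsilaterally in wt, and at 24.9, 25.01 and 20.8 against 24.5, 29.99 and 29.7 in cKO. The wt sides did not overlap and in cKO ipsilateral replicate 1 was within the contralateral range. The rise was 0.30 ± 0.07 (adjusted p = 0.0138, edgeR, ratio 1.23). Both calls held without each library in turn and were lost in the TPM fits, with adjusted p up to 0.523 for Kcnj10 and 0.479 for Kcnj16.

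Astrocyte markers moved with these genes. All 8 were above 0 over both genotypes and 4 passed higher, Sox9 (0.82), Slc1a3 (0.24), Slc1a2 (0.25) and Gja1 (0.25), with a median of 0.19. Summed astrocyte TPM was 811 to 1028 in wt contralateral, 827 to 1005 in wt ipsilateral, 829 to 949 in cKO contralateral and 939.5 to 1206 in cKO ipsilateral libraries. Of 13 neuron markers none passed higher and 3 passed lower, Tubb3 (−0.38), Snap25 (−0.17) and Syt1 (−0.17), with a median of −0.11. Meningeal and fibroblast markers were below 0 in 8 of 8, with a median of −0.42, and Slc6a13 (−0.54), Col1a2 (−0.46) and Ogn (−0.44) passed lower. Their summed TPM was 96.4 to 103 contralaterally and 58.6 to 74.7 ipsilaterally in wt, and 68.3 to 98.8 against 59.5 to 72.4 in cKO. Of 6 oligodendrocyte precursor markers 5 were above 0, with a median of 0.20, and Sox10 (0.45) passed higher. The part of cell composition in the channel results was not tested.

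The other 9 inward rectifiers did not pass. Kcnj12, a strong rectifier, was at −0.31 ± 0.10 (adjusted p = 0.0684, edgeR), and it was called lower in 5 of 24 alternatives, among them the replicate block and DESeq2. Kcnj4, the strong rectifier of highest level, differed by −0.08 ± 0.06, the classical rectifier Kcnj2 by 0.27 ± 0.13, and Kcnj13, known from choroid plexus, by −0.35 ± 0.24, the largest of the class. Kcnj13 was low, 0.574 to 2.00 CPM. Choroid plexus and ependymal markers summed to 56.9 TPM in wt ipsilateral replicate 2 and to 2.98 to 17.5 in the other 11 libraries. Summed CPM of the class was 905 ± 13.3 and 956 ± 19.8 in wt, without overlap, and 887 ± 31.1 and 909.8 ± 14.4 in cKO, with overlap.

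Of the 9 two-pore-domain genes Kcnk12 rose. Kcnk12 (ENSMUSG00000050138, chr17:87745801-87797994) encodes THIK-2, a subunit that is nearly silent when expressed alone. It was at 6.42, 4.04 and 4.86 CPM contralaterally and 9.59, 9.83 and 9.09 ipsilaterally in wt, and at 5.81, 7.03 and 9.91 against 9.30, 8.49 and 10.6 in cKO. The wt sides did not overlap. In cKO contralateral replicate 3 lay within the ipsilateral range.

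In wt Kcnk12 rose by 0.89 ± 0.19 (adjusted p = 0.0166, edgeR, 1.86-fold). The wt call was lost without wt contralateral replicate 2 or wt ipsilateral replicate 2 and in the 3 TPM fits. Over both genotypes Kcnk12 rose by 0.60 ± 0.13 (adjusted p = 0.0115, edgeR). That call held without each library in turn and was lost in the 3 TPM fits, with adjusted p up to 0.212. In cKO the difference was 0.31 ± 0.19. Alternatives gave the wt call adjusted p from 1.3e-06 to 0.309.

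The remaining two-pore-domain genes lay on both sides of 0. Kcnk6 was at −0.42 ± 0.13 (adjusted p = 0.0660, edgeR), with 7 of 24 alternatives past the threshold. Kcnk1, the most abundant at 79.4 TPM, was at 0.12 ± 0.05, Kcnk2, the stretch-sensitive TREK-1, at 0.04 ± 0.09, and Kcnk13, the THIK-1 channel of microglia, at 0.02 ± 0.11. Summed CPM was 286 ± 9.77 and 299.9 ± 17.1 in wt and 296 ± 7.90 and 300.2 ± 13.1 in cKO.

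The 100 members were then set side by side in the 2 genotypes. The wt and cKO differences between sides come from separate libraries, and across genes their Pearson correlation was 0.625 and Spearman's rho 0.406, against 0.658 and 0.475 across all 16836 genes, with genes not being independent replicates. The sign was shared by 71 members, against 70.1% of all genes. In a principal component analysis of the members, the first component held 37% of the variance. All 6 ipsilateral libraries were at 0.399 or above on it and the contralateral ones ranged from −1.77 to 0.0777, with wt contralateral replicate 3 and cKO contralateral replicate 3 (−0.273) nearest to the ipsilateral side.

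**Figure D4:**
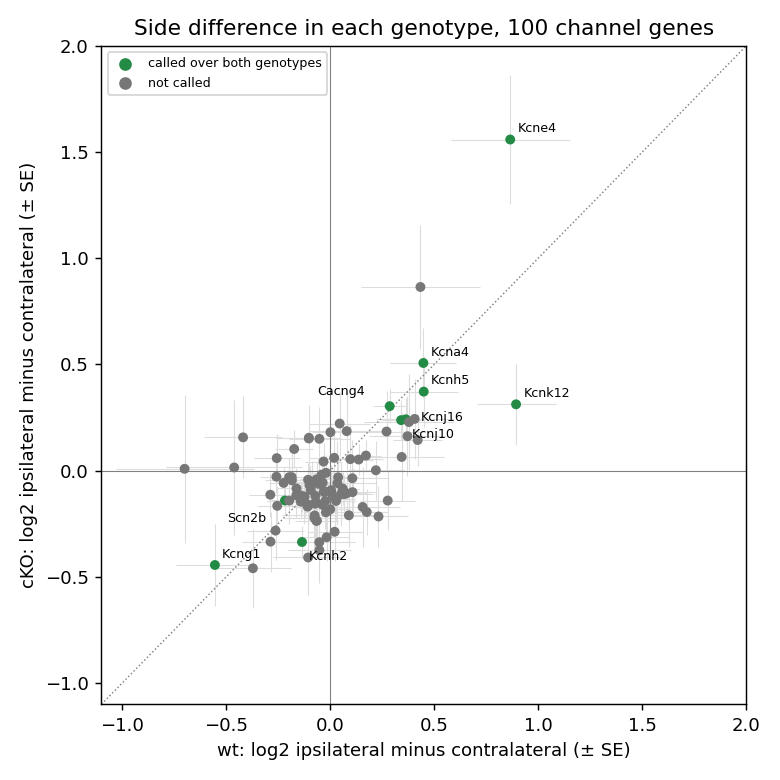
Log2 difference between sides in cKO (y axis) against that in wt (x axis) for the 100 channel genes, 1 point a gene with standard errors, and the 10 genes called over both genotypes in green. All 10 lie in the quadrants of shared sign, which their selection on the average of both genotypes favours. The dotted line marks equal differences.

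Genes that act with these channels were taken from a fixed list. Of 44 excitability partners (HCN and sodium leak channels, ankyrins, channel-binding FGFs, Kv4 accessory peptidases and ion pumps), 43 were tested. Over both genotypes 35 were below 0, against 51.8% of all genes, and their median was −0.09, against −0.01. Of the 43, 1 passed higher and 2 passed lower, against 5.99% and 2.03% of all genes. Atp1b2, the glial sodium pump beta subunit, rose by 0.17 ± 0.05 (adjusted p = 0.0420, edgeR). Lower calls included Dpp6, which speeds Kv4 currents and fell by 0.18 ± 0.04 on the log2 scale (adjusted p = 0.00985, edgeR). In each genotype alone none of the 43 passed edgeR's adjusted test. At an unadjusted p under 0.05 there were 2 higher and 4 lower in wt and 0 higher and 6 lower in cKO. Of the 100 members, 10 were higher and 10 lower in wt, and 7 higher and 12 lower in cKO. The share of all genes at that threshold is not given here.

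The second comparison asked whether floxed STING changed channel transcripts. No member passed in contralateral cortex, in ipsilateral cortex, or over both sides, and neither did any of the 16836 genes (percent called 0 in each), with edgeR or, for members, with DESeq2. At an unadjusted p under 0.05, contralateral cortex had 3 members higher and 1 lower in cKO, against 1.55% and 1.15% of all genes. Ipsilateral cortex had 4 higher and 15 lower, against 2.83% and 3.04%. There 59 of the 100 members were below 0 in cKO (median −0.05, against 0.001 for all genes). So were 11 of 13 neuron markers (median −0.08, 4 lower at an unadjusted p under 0.05). Also below 0 were 8 of 10 striatal markers (median −0.27, 4 lower) and 34 of 43 excitability partners. The same held for 9 of 10 endothelial and mural and 8 of 8 meningeal and fibroblast markers. It held for 7 of 8 microglia and 5 of 5 red cell markers. Astrocyte (4 of 8), oligodendrocyte precursor (4 of 6) and choroid plexus and ependymal markers (4 of 7) were split. Oligodendrocyte (1 of 8) and neutrophil markers (0 of 8) went the other way. Summed striatal marker TPM was 215 to 312 in wt and 194 to 282 in cKO ipsilateral libraries, and no neuron or striatal marker was at 0. No marker passed the adjusted test, and the part of tissue composition in the member counts was not tested. Over both sides there were 4 higher and 14 lower, against 3.25% and 3.21%. The fit over both sides treated the libraries of a genotype as independent, which they are not if the sides share animals.

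On the injured side the 15 lower members came from 11 of the 15 classes. Kcnip2, also a KChIP, was lowest in p. It was at 176, 155 and 180.1 CPM in wt ipsilateral libraries and 124, 97.6 and 138 in cKO ones, without overlap, and contralaterally at 181, 118 and 136 against 126, 149.9 and 139. The ipsilateral difference was −0.52 ± 0.14 (unadjusted p = 0.00282, adjusted p = 0.751, edgeR, 95% interval −0.82 to −0.21). Without the low-count filter, 3 members passed lower in cKO ipsilateral cortex (Kcnip2, Kcnab3 and Cacna2d1), and 2 over both sides (Kcnip2 and Kcnab3). In that fit 0.758% of all genes passed ipsilaterally and 0.802% over both sides, in either direction.

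Among the next members by p in ipsilateral cortex were Kcnc4, Kcnf1 and Kcnk4, each with adjusted p of 0.75 in edgeR. Kcnc4, a fast Kv3 channel, was at 88.9, 88.6 and 82.0 CPM in wt and 101, 113 and 97.3 in cKO, and Kcnf1 at 146, 146 and 152 against 167, 177 and 197. Kcnk4, the mechanosensitive TRAAK channel, was at 29.0, 30.9 and 26.5 CPM in wt and 22.1, 21.3 and 26.4 in cKO. The genotypes did not overlap in these 3 genes, which were chosen for low p. Over all members the ipsilateral libraries of the genotypes did not overlap for 5 higher and 18 lower in cKO, against 5.6% and 5.99% of all genes.

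Contralaterally the lowest p values were those of Kcnn2 (0.28 ± 0.09), Kcnk12 (0.55 ± 0.19), Kcng2 (0.34 ± 0.15), Cacna1c (−0.16 ± 0.07) and Kcnu1 (−0.37 ± 0.19), each with adjusted p of 1.0 in edgeR. Kcnn2 was at 25.8, 25.5 and 25.3 CPM in wt contralateral and 28.5, 29.8 and 34.96 in cKO contralateral libraries, and at 23.6, 26.6 and 28.6 against 29.8, 31.7 and 29.5 ipsilaterally. On each side alone the genotypes did not overlap. Over both sides the difference was 0.25 ± 0.07 (adjusted p = 0.564, edgeR). Kcnn2 and Kcng2 are the 2 members on chromosome 18, which also carries Tmem173, with starts 9.54 and 44.6 Mb from it in mm10.

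Over both sides the other genes of lowest p were Kcnj16 (−0.23 ± 0.07), Cacna1a (−0.15 ± 0.05), Kcnip2 (−0.29 ± 0.10) and Kcnab3 (−0.29 ± 0.10). Kcnab3, a Kv1 beta subunit, was at 182, 117 and 112 CPM in wt contralateral, 136, 140.1 and 161 in wt ipsilateral, 115, 132 and 126 in cKO contralateral and 107, 97.8 and 119 in cKO ipsilateral libraries. Its wt contralateral replicate 1 stood above all others. Cacna1a was the 1 member whose 6 cKO values were all below its 6 wt values, at 138 to 164 CPM against 166 to 182. Of all genes, 0.0772% were apart in that direction. The 6 values of a genotype may include both sides of the same animals.

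**Figure D5:**
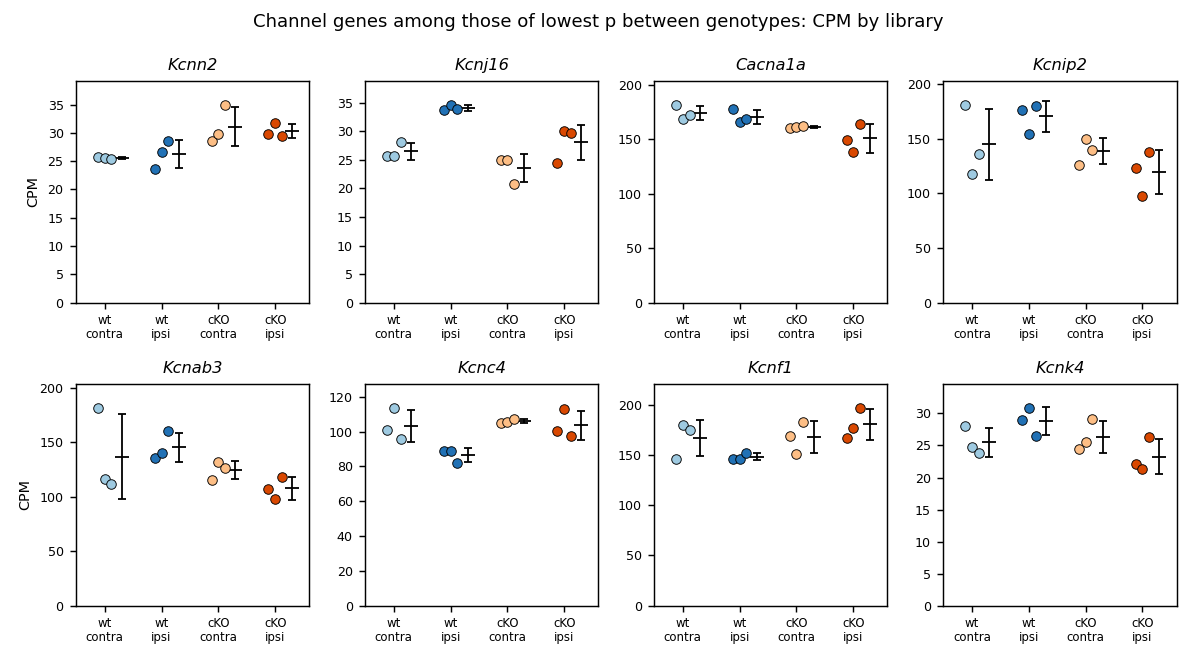
CPM in each of the 12 libraries for 8 channel genes among those of lowest unadjusted p between genotypes over both sides or in ipsilateral cortex, 1 panel a gene and 3 points a group, with the group mean and SD as a black bar (axes start at 0). None of these genes passed the adjusted test, and the Cacna1a panel shows the cKO points below the wt points on both sides.

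The last comparison asked whether the difference between sides was itself different in cKO. No member and no gene passed (percent called 0), and at an unadjusted p under 0.05 there were 2 members higher and 4 lower, against 1.17% and 1.09% of all genes. Those of lowest p included Cacna1c (0.26 ± 0.10), Kcnk4 (−0.37 ± 0.15), Kcnip2 (−0.45 ± 0.20) and Kcnk12 (−0.58 ± 0.27), each with adjusted p of 1.0 in edgeR. For Kcnk12 the 95% interval ran from −1.16 to −0.01, and for Kcne4 the difference was 0.69 ± 0.42. The alpha2delta genes had the lowest class median, −0.24, with 4 of 4 below 0, and the high-voltage-activated calcium genes the highest, 0.15.

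How small a difference these data could show varied by comparison. The 95% interval lay within 1.5-fold of no difference for 97 of the 100 members between genotypes over both sides, for 91 contralaterally and for 84 ipsilaterally, but for 66 in the difference of differences. The fit over both sides treated all libraries of a genotype as independent. If both sides came from the same animals, its intervals may be too narrow. In simulated counts of the same design, 200 genes were changed by a fixed fold and the others were left unchanged. The test recovered 57% of genes changed 1.5-fold between genotypes ipsilaterally and 85% of those changed 2-fold. For the difference of differences it recovered 12.5% and 73%. These shares depend on how many genes change, so they may be too high where only a few do.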

How the data were processed

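Estimated counts per gene and TPM values were used as deposited by the authors. Per the submitters' processing notes, Trim Galore 0.6.4, STAR 2.7.1a, RSEM 1.2.28 and DESeq2 1.36.0 were named with the genome build mm10, without their settings. The expected counts, which the authors deposited in 1 table of 12 libraries, were rounded to whole numbers here. Gene names and positions came from GENCODE M21, to which 99.531% of 55487 rows matched, and rows without a match held at most 0.00451% of a library. The matrix of counts was not otherwise altered.

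The members, classes and lists were chosen with earlier results of these data known. All 12 libraries were fitted together with edgeR 4.0.16 (R 4.3.3, TMM scaling, filterByExpr with a minimum count of 10, quasi-likelihood test, prior count 2), with 1 mean per group. 7 contrasts were tested, and p-values were adjusted over 16836 genes at 0.05. CPM values were scaled by TMM and were compared between groups only. TPM, which keeps no depth, was used for levels between genes. Alternatives used DESeq2 1.42.0 and limma 3.58.1 on counts and on log2(TPM + 1) or log2(TPM + 0.1). Named genes were every member past the threshold (or the 5 of lowest p where none passed), the most abundant and most different member of each class, members close to the membership threshold, a list of well-known channels, and excitability partners past the threshold. A few of these genes are not reported here. The fit was tested on simulated data with 200 changed genes in each run. There 35% of genes changed 1.25-fold, 80% changed 1.5-fold and 96.5% changed 2-fold were recovered between sides over both genotypes. Replicate numbers in the labels were checked for pairing over 14536 genes: deviations of same-numbered cKO libraries correlated at 0.105, 0.239 and 0.165 between sides, which by the rule used (each over 0.1) pairs them, and those of wt libraries at −0.112, 0.211 and 0.0607, which does not. Same-numbered libraries of different genotypes, which cannot share an animal, correlated at 0.0973, 0.0414 and 0.134 ipsilaterally and at −0.0398, −0.107 and −0.141 contralaterally. The value of 0.134 is over 0.1, so passing the rule does not by itself mark an animal. Intervals and p-values cover the spread between libraries, and 3 libraries a group limit their precision.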

Additional observations from a re-analysis of the deposited data

How the results depend on the processing

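For differences between sides, the number of channel genes called was 1 in wt, 2 in cKO and 10 over both genotypes. The shares of all genes called were 2.92%, 2.74% and 8.02%. Without the low-count filter the number was 9, 6 and 17, against 3.37%, 3.29% and 6.55% of all genes. In the fits to log2(TPM + 1), log2(TPM + 0.1) and log2(TPM + 1) without a filter it was 0, 0 and 0 in wt, 0, 0 and 0 in cKO, and 3, 3 and 2 over both genotypes. Those fits called 0.332% to 0.944% of all genes in wt, 0.577% to 1.18% in cKO and 1.08% to 2.74% over both genotypes. The all-gene median also moved there, and no other cause was tested. In wt alone the number was 8 with DESeq2, 2 with limma-voom, 2 with only the groups compared, 8 with length and GC trends removed, and 9 without cKO ipsilateral replicate 3 and wt contralateral replicate 3. The shares of all genes were, in that order, 4.55%, 3.11%, 2.3%, 4.4% and 5.68%. Membership at a mean TPM of 5 gave 1 in cKO, since Kcne4 is then no member. With the replicate block the number was 2 in wt (Kcng1 and Kcnk12), 2 in cKO (Kcne4 and Kcng1) and 15 over both genotypes, 10 of these shared with the fit without the block and 5 gained (Kcna3, Kcnip4, Kcnj12, Kcnk6 and Kcnv1). With it 3.37%, 3.17% and 8.81% of all genes were called. The block paired wt libraries too, although their numbers did not pair by the rule used. Leaving out each library in turn gave 0 to 8 in wt, 0 to 3 in cKO and 6 to 19 over both genotypes. The shares of all genes then ran from 1.46% to 5.02%, from 1.62% to 3.38% and from 5.09% to 12.1%.

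Between genotypes no channel gene was called, except without the low-count filter. There 3 were called ipsilaterally and 2 over both sides, against 0.758% and 0.802% of all genes. Of the named genes, no call changed direction under any alternative; 76 values lost and 32 gained a call, and the causes were not tested. The shallowest library, cKO ipsilateral replicate 3, held 7958931 counts, and the lowest library held 35 counts of Kcne4. The part of depth in the results for low members was not tested.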
